A study of Mus musculus with 6 samples.

Results

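The genes described here are the cytochrome P450 genes of families 1 to 4 in mouse liver. They were chosen by name alone. A probe set of the array counted if the platform annotation gave it exactly 1 gene symbol and that symbol began with Cyp, a digit from 1 to 4 and a letter, with pseudogene symbols left out. This gave 55 genes, read by 68 probe sets, of 18193 genes and 45037 probe sets in all. A gene with several probe sets was represented by the one with the highest mean, which concerned 11 of the 55. The mice were C57BL/6 males, an inbred strain, and no altered allele or drug is named in the labels. For 12 weeks from the age of 8 weeks they ate either a normal diet, whose make-up the labels do not give, or food in which fat made up 60% of the calories (the high-fat diet). Each diet had 6 mice, and liver RNA was combined from 2 mice per pool, so each diet is represented by 3 pools on 3 Affymetrix Mouse Genome 430 2.0 arrays. The design was aimed at genes of lipid handling in the liver in obesity.

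P450 enzymes are haem proteins of the endoplasmic reticulum. They insert 1 atom of oxygen into their substrate with electrons passed on from NADPH by a reductase, in some reactions with help from cytochrome b5. Families 1 to 3 clear drugs, toxins and steroids and in part oxidise polyunsaturated fatty acids, and family 4 hydroxylates fatty acids at or near the methyl end. In liver, many of these genes are under the control of the aryl hydrocarbon receptor, the nuclear receptors CAR, PXR and PPARα, hepatocyte transcription factors and the pulses of growth hormone that differ between the sexes. Several are expressed mainly in hepatocytes near the central vein.

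All levels are log2 values from robust multi-array averaging (RMA), in which a difference of 1 is a doubling. Each difference is high-fat minus normal diet, n = 3 arrays per diet, and its standard error (SE) comes from limma. Adjusted p-values are limma's from a two-sided test, adjusted by Benjamini-Hochberg over the 14071 genes tested, and a gene is called when its adjusted p is below 0.05. They weigh a difference against the spread between pools of mice, not between single mice. Levels were compared within a gene only, since probes of different genes bind with different strength. Near background RMA shrinks differences, and the folds of dim genes are then too small. Of the 55 genes, 48 passed the filter on low levels and were tested, 44 of them above the filter in all 6 arrays. The other 7 (Cyp2b19, Cyp2c65, Cyp2g1, Cyp2j13, Cyp3a16, Cyp3a44 and Cyp4x1) lay between 2.26 and 3.52 in every array, where the filter was 3.48 to 3.59 depending on the array, and have no test. Cyp2b9, Cyp2d34, Cyp2s1 and Cyp4f39 passed although at least 1 array was below the filter, and none of them was called.

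Of the 48 tested genes, 8 were lower under the high-fat diet, 2 were higher and 38 were not called. The 8 lower genes are 16.7% of those tested, beside 1.73% of all genes called lower. The 2 higher genes are 4.17%, beside 5.87% of all genes called higher. For 21 of the 48 genes (43.8%) no array of one diet reached the range of the other, in 13 with the high-fat arrays lower and in 8 with them higher, and 35.8% of all genes had no overlap. The median difference of the 48 was -0.063, against 0.003 over all genes, and 25 of 48 lay below 0. By family, 1 of 3 tested genes was lower in family 1, 6 of 31 in family 2, none of 3 in family 3 and 1 of 11 in family 4. The 2 higher genes were 1 of family 2 and 1 of family 4.

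**Figure D1:**
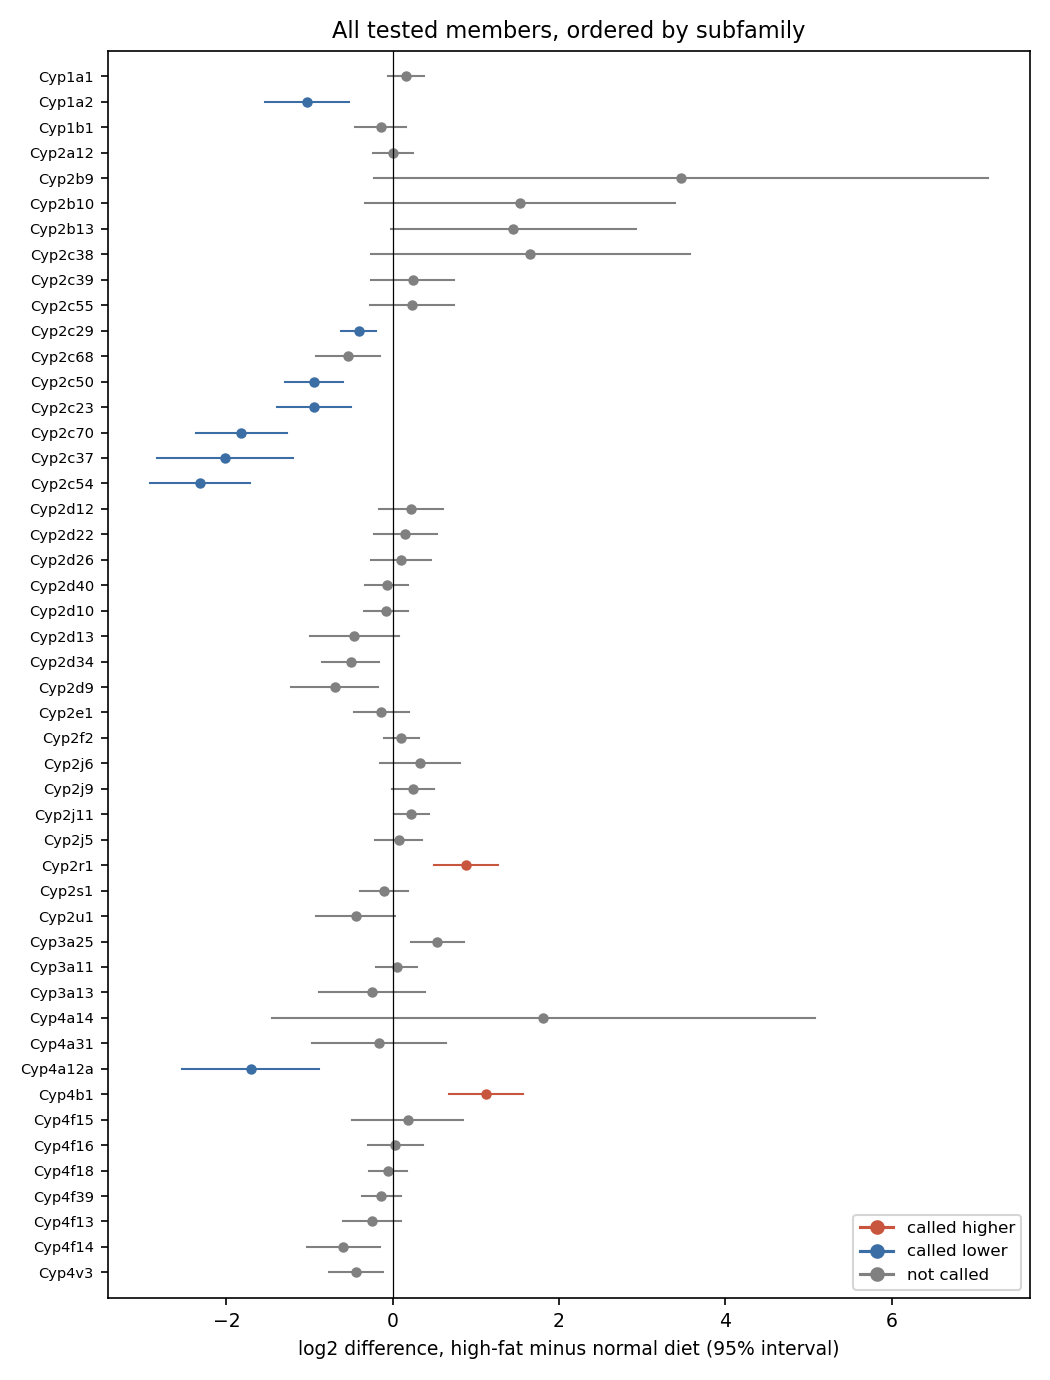
Log2 difference (high-fat minus normal diet, horizontal axis) of each of the 48 tested P450 genes, ordered by subfamily on the vertical axis, with its 95% interval from limma. Blue points are called lower (8), red points called higher (2), grey points not called; the widest intervals belong to Cyp2b9 and Cyp4a14.

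The Cyp2c subfamily held 6 of the 8 lower genes. Its enzymes metabolise drugs and make epoxides and alcohols of arachidonic acid, and Cyp2c70 makes the muricholic acids of mouse bile. Of 10 tested Cyp2c genes 6 fell, none rose, and 8 had arrays that did not overlap between diets, 7 of them lower. Over all genes 1.73% were called lower, 5.87% were called higher and 35.8% had no overlap. The median difference of the 10 was -0.74. Cyp2c54 was at 12.02, 11.55 and 10.89 in the normal diet arrays 1, 2 and 3 and at 9.12, 9.14 and 9.25 in the high-fat arrays. All high-fat arrays were below all normal diet arrays and lay close together, while the normal diet arrays were spread over 1.13. The difference was -2.32 ± 0.257 (SE, limma adjusted p = 0.00520), 4.98-fold lower. Cyp2c37 was at 11.86, 11.35 and 10.51 in the normal diet arrays and at 9.37, 8.75 and 9.55 in the high-fat arrays. Normal diet 3 was again the lowest of its group and still above every high-fat array. Cyp2c37 fell 4.05-fold (-2.02 ± 0.349, limma adjusted p = 0.0186).

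Cyp2c70 was at 12.50, 12.48 and 13.37 in the normal diet arrays and at 10.91, 10.92 and 11.05 in the high-fat arrays. Here normal diet 3 was the highest of its group, the opposite of Cyp2c54 and Cyp2c37. The gene fell 3.54-fold (-1.82 ± 0.234, limma adjusted p = 0.00833). Cyp2c50 was at 12.86, 12.91 and 12.41 in the normal diet arrays and at 11.81, 11.67 and 11.85 in the high-fat arrays, a 1.93-fold decrease (-0.95 ± 0.151, limma adjusted p = 0.0139). Cyp2c23, formerly Cyp2c44 and known as an arachidonic acid epoxygenase, was at 11.17, 10.66 and 10.38 in the normal diet arrays and at 9.78, 9.82 and 9.77 in the high-fat arrays. Its high-fat arrays lay within 0.051 of each other, all below the normal diet arrays. Cyp2c23 fell 1.93-fold (-0.95 ± 0.191, limma adjusted p = 0.0302), read by a probe set whose suffix marks probes shared by several transcripts. Cyp2c29, an epoxygenase induced through CAR, was at 12.63, 12.58 and 12.55 in the normal diet arrays and at 12.16, 12.22 and 12.14 in the high-fat arrays. The spread within each diet was under 0.1 and the groups were apart, with a decrease of 1.33-fold (-0.41 ± 0.090, limma adjusted p = 0.0381). The Cyp2c29 call was lost with median centring of the arrays (limma adjusted p = 0.0543) and without normal diet 1 or 2 (0.0704 and 0.0731).

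The other 4 tested Cyp2c genes were not called. Cyp2c68 was at 10.80, 11.30 and 11.16 in the normal diet arrays and at 10.63, 10.32 and 10.71 in the high-fat arrays (-0.53 ± 0.165, limma adjusted p = 0.0921). Its groups did not overlap, in the same direction as the 6 genes called, and without normal diet 1 it was called lower as well (-0.68, limma adjusted p = 0.0454). Cyp2c39 differed by 0.24 and Cyp2c55 by 0.23, both with overlapping arrays. Cyp2c38 had the largest positive difference of the subfamily (1.66 ± 0.819, limma adjusted p = 0.234), which is described further on together with the other genes in which 1 normal diet array stood apart. Of 15 Cyp2c genes in the mouse assembly GRCm38.p6, 11 had a probe set of their own here. The Cyp2c genes are close copies of each other, and whether each probe set reads its named gene alone was not tested.

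By gene order in that assembly, Cyp2c37, Cyp2c54, Cyp2c50 and Cyp2c70 follow each other with no other protein-coding gene of the table between them, and all 4 were called lower. Cyp2c29, with the smallest decrease, lies farther off in the group, next to Cyp2c39 and Cyp2c38, and Cyp2c23 lies apart from the rest. The stretches before the starts of 5 of these genes are shown, because they set the genes that fell beside a neighbour that did not. They are the 200 bases upstream of each start from RefSeq, build GRCm38.p6, written 5′ to 3′ on the gene's strand. Capitals mark matches, on either strand, to CAAAGTNCA, a core of the HNF4α site, and to ATCAAT, a core of the ONECUT1 (HNF6) site.

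Cyp2c37, chr19:39992224-39992423, plus strand: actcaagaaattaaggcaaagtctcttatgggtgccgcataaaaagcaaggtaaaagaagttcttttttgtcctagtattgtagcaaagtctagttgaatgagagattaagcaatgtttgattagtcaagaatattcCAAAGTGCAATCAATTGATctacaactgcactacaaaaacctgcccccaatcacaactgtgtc
Cyp2c50, chr19:40089479-40089678, plus strand: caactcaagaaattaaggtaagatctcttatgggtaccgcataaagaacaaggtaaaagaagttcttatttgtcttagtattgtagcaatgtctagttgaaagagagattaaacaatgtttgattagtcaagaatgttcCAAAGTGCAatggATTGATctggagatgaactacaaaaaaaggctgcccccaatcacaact
Cyp2c70, chr19:40187287-40187486, minus strand: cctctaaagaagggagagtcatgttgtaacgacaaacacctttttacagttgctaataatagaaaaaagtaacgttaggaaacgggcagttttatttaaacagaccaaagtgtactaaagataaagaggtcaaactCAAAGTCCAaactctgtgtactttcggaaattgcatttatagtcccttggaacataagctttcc
Cyp2c29, chr19:39286885-39287084, plus strand: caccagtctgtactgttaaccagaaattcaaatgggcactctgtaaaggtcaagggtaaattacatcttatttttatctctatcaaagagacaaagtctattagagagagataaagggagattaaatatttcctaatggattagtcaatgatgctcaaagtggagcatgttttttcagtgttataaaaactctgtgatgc
Cyp2c38, chr19:39463076-39463275, minus strand: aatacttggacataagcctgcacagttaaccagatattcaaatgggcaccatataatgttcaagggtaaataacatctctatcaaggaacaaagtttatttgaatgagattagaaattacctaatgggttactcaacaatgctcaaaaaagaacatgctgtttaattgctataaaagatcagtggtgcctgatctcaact

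Cyp2c37 and Cyp2c50 were identical at 88.4% of aligned bases over 250 bases upstream, and Cyp2c29 and Cyp2c38 at 82.0%. Cyp2c37 and Cyp2c29 shared 68.1%. Over those 250 bases CAAAGTNCA matched 1.19% of 32851 RefSeq promoters and 9 of the 43 P450 genes with a promoter in the table (20.9%). Of the 5 lower genes with a promoter it matched Cyp2c37, Cyp2c50 and Cyp2c70. It also matched Cyp2c68, Cyp2d26 and Cyp3a11, which were not called, and Cyp2c65, Cyp3a16 and Cyp3a44, which were below the filter and not tested. ATCAAT matched 6.72% of all promoters and 8 of the 43 (18.6%), among them Cyp1a2, Cyp2c37 and Cyp2c50 of the 5 lower genes. The remaining matches were Cyp2c68, Cyp4f14 and Cyp4f15, which were not called, and Cyp3a16 and Cyp3a44, which were not tested. In Cyp2c37 matches to the motifs run into each other. Neither motif matched Cyp4b1 or Cyp2r1, the genes that rose, and with only 2 promoters the lack of a match says little. The motifs were chosen after the values of Hnf4a and Onecut1, given below, had been seen. A match describes the letters and was not tested as a binding site.

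**Figure D2:**
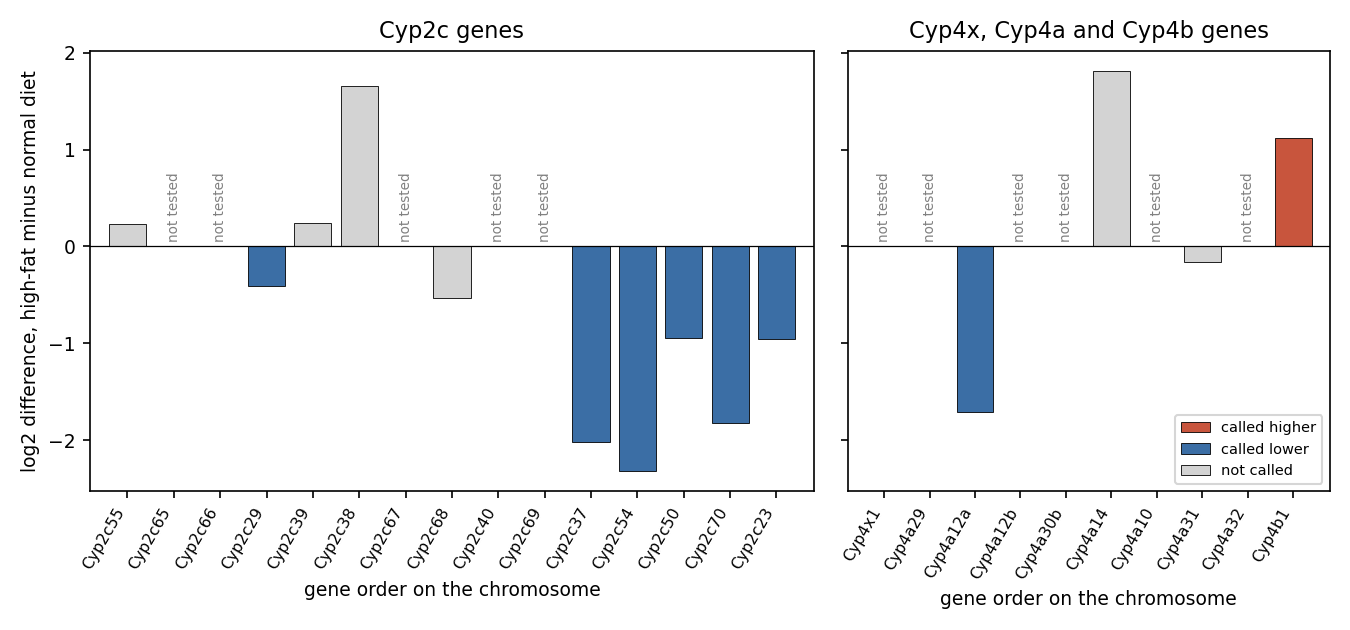
Log2 difference (high-fat minus normal diet, vertical axis) of the Cyp2c genes (left) and of the Cyp4x, Cyp4a and Cyp4b genes (right), in their order along the chromosome (horizontal axis). Blue bars are called lower, the red bar (Cyp4b1) called higher, grey bars not called; genes marked as not tested have no probe set of their own or were below the filter, and 4 neighbours from Cyp2c37 to Cyp2c70 are all blue.

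Family 1 enzymes oxidise aromatic hydrocarbons and are regulated by the aryl hydrocarbon receptor. Cyp1a2, the caffeine-metabolising enzyme of hepatocytes, was at 11.89, 11.12 and 11.07 in the normal diet arrays and at 10.39, 10.39 and 10.21 in the high-fat arrays. All high-fat arrays were lower, with a decrease of 2.04-fold (-1.03 ± 0.217, limma adjusted p = 0.0336). Its neighbour Cyp1a1 was dim, at 4.08 to 4.16 under the normal diet and 4.19 to 4.33 under the high-fat diet, and was not called (0.16 ± 0.094, limma adjusted p = 0.310). Cyp1b1 differed by -0.15 ± 0.129 and was not called. Of the 4 tested P450 genes listed as regulated by the aryl hydrocarbon receptor, Cyp1a2 alone was called. Cyp1b1 was dim as well, at 4.03 to 4.49, and Cyp2s1, at 3.27 to 3.65, was above the filter in 3 of 6 arrays. At such levels the lack of a call says little.

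Family 4 enzymes hydroxylate fatty acids and eicosanoids. Of 11 tested genes, Cyp4a12a fell and Cyp4b1 rose. Cyp4a12a, the male-specific arachidonic acid hydroxylase, was at 11.74, 10.94 and 11.46 in the normal diet arrays and at 8.87, 10.04 and 10.10 in the high-fat arrays. High-fat 1 was the lowest, and all high-fat arrays were below all normal diet arrays. The decrease was 3.27-fold (-1.71 ± 0.352, limma adjusted p = 0.0320), and without normal diet 1 the gene was not called (-1.53, limma adjusted p = 0.0645). Cyp4b1, known for activating pneumotoxins and hydroxylating fatty acids, was at 6.94, 6.69 and 6.19 in the normal diet arrays and at 7.59, 7.76 and 7.83 in the high-fat arrays. Its groups were apart, and it rose 2.17-fold (1.12 ± 0.191, limma adjusted p = 0.0178). Cyp4a12a and Cyp4b1 lie near the ends of 1 group of genes, so opposite calls stood within it.

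Cyp4f14, which inactivates leukotriene B4, was at 9.79, 9.66 and 9.29 in the normal diet arrays and at 8.65, 9.21 and 9.09 in the high-fat arrays. It was not called (-0.60 ± 0.188, limma adjusted p = 0.0957), although its groups did not overlap, and it was called lower after quantile normalization, after cyclic loess and without normal diet 3 (limma adjusted p = 0.0471, 0.0484 and 0.0386). Cyp4v3, a fatty acid hydroxylase, was at 11.18 to 11.60 under the normal diet and 10.96 to 11.12 under the high-fat diet (-0.44 ± 0.140, limma adjusted p = 0.0986). Without normal diet 2 it was called lower (-0.58, limma adjusted p = 0.0350). The other 5 tested Cyp4f genes were not called either.

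Cyp2r1, the microsomal enzyme that adds the hydroxyl group at carbon 25 of vitamin D, was the other gene that rose. It was at 5.39, 5.28 and 4.78 in the normal diet arrays and at 5.96, 6.08 and 6.07 in the high-fat arrays. No array of one diet reached the other, and the increase was 1.85-fold (0.89 ± 0.165, limma adjusted p = 0.0231).

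**Figure D3:**
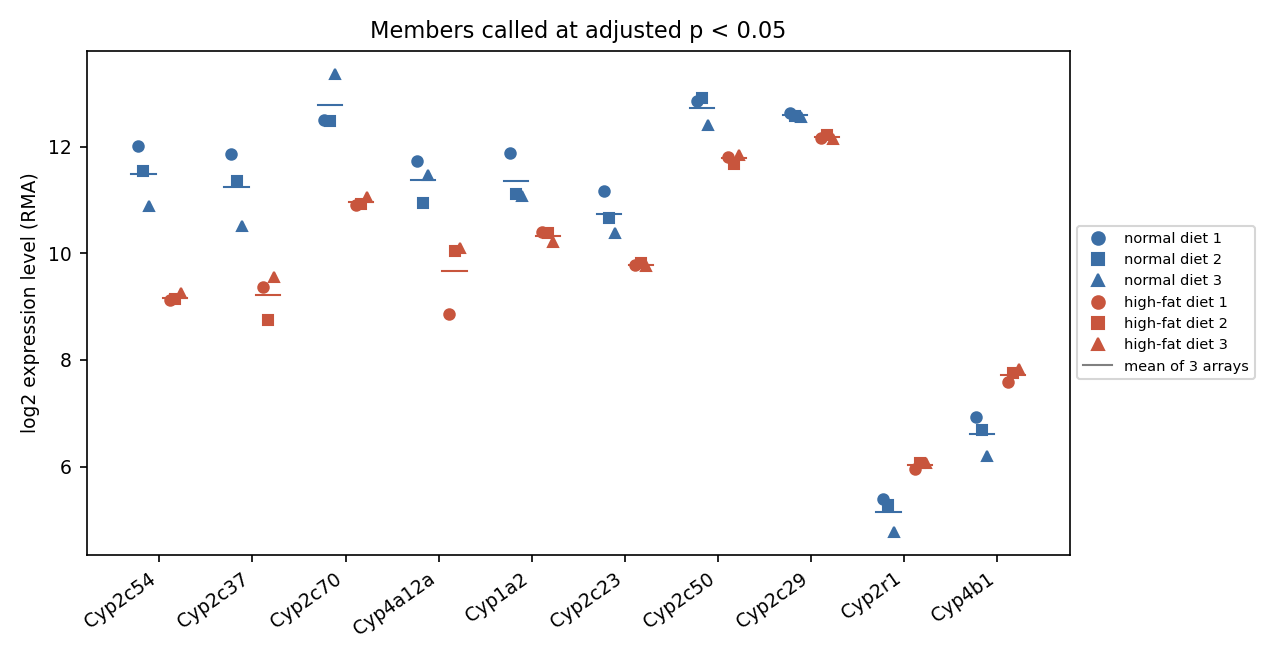
Log2 expression level (RMA, vertical axis) of the 10 P450 genes called at an adjusted p below 0.05 (horizontal axis), with 3 normal diet arrays in blue and 3 high-fat arrays in red, symbols for array 1, 2 and 3 and a line at each mean. The diets do not overlap for any of the 10; the normal diet arrays are spread more widely for most.

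Several well-known enzymes of families 2 and 3 were not called and had differences near 0. Cyp3a11, the main PXR-induced enzyme of mouse liver, was at 13.89, 13.64 and 13.84 in the normal diet arrays and at 13.86, 13.86 and 13.79 in the high-fat arrays, a difference of 0.05 ± 0.105 with a 95% interval of -0.20 to 0.29. Cyp2e1, which oxidises ethanol, differed by -0.14 ± 0.142, with an interval of -0.47 to 0.19. Cyp2f2, a periportal enzyme known for naphthalene, differed by 0.10 ± 0.088, with an interval of -0.10 to 0.31. The sign of Cyp3a11 and Cyp2f2 turned with cyclic loess. Cyp3a25 was at 12.10, 12.06 and 11.72 in the normal diet arrays and at 12.63, 12.50 and 12.35 in the high-fat arrays (0.54 ± 0.138, limma adjusted p = 0.0594). Its groups were apart and its call just missed the threshold, which it passed with array weights (limma adjusted p = 0.0423).

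The Cyp2d and Cyp2j genes had no call among 8 and 4 tested. Cyp2d9, the testosterone hydroxylase of male liver, was at 12.68, 12.16 and 12.44 in the normal diet arrays and at 11.34, 12.16 and 11.69 in the high-fat arrays (-0.70 ± 0.224, limma adjusted p = 0.0993). High-fat 2 and normal diet 2 were nearly level. Cyp2d34 was the other Cyp2d gene whose groups did not overlap (-0.51, limma adjusted p = 0.0790), and it is named because its values were seen. The 4 Cyp2j genes, epoxygenases of which Cyp2j5 is abundant in liver and kidney, differed by 0.07 (Cyp2j5) to 0.33 (Cyp2j6). The sign of Cyp2j5 turned with cyclic loess. Cyp2u1, a further fatty acid hydroxylase, differed by -0.45 ± 0.202 and was not called.

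Large differences without a call were found in genes where 1 normal diet array stood apart. Cyp2b9, a female-biased gene of mouse liver, was at 4.26, 9.83 and 2.82 in normal diet arrays 1, 2 and 3 and at 9.15, 8.65 and 9.52 in the high-fat arrays. Normal diet 2 was above every high-fat array, and the other normal diet arrays were far below. The difference of 3.46 ± 1.58 had a 95% interval of -0.23 to 7.16 (limma adjusted p = 0.204). Cyp2b10, the classical CAR target, was at 5.91, 8.39 and 5.07 in the normal diet arrays and at 8.76, 7.91 and 7.31 in the high-fat arrays (1.53 ± 0.798, limma adjusted p = 0.253). Its remaining probe sets differed by 1.62 and 1.00. The probe set used carries the suffix that marks probes shared by several transcripts, as does the one at 1.62. Whether each Cyp2b probe set reads its named gene alone was not tested. Cyp2b13, female-biased as well, was at 5.24, 7.20 and 4.86 in the normal diet arrays and at 6.66, 6.88 and 8.10 in the high-fat arrays (1.45 ± 0.630, limma adjusted p = 0.187). In all 3 genes normal diet 2 lay among the high-fat arrays or above them and normal diet 3 was lowest. Without normal diet 2 each was called higher, at 5.56, 2.50 and 2.16 (limma adjusted p = 0.00420, 0.0272 and 0.0352), and without normal diet 3 the differences of Cyp2b9 and Cyp2b10 were 2.06 and 0.84.

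The Cyp2b genes lie side by side as Cyp2b10, Cyp2b13 and Cyp2b9. The upstream stretches of Cyp2b9 and Cyp2b13 are shown because they are nearly the same sequence, with 2 differing bases in 250 (99.2% identical), against 75.8% for Cyp2b9 and Cyp2b10. Capitals mark the base that differs within the 200 bases given, from RefSeq, build GRCm38.p6.

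Cyp2b9, chr7:26173209-26173408, plus strand: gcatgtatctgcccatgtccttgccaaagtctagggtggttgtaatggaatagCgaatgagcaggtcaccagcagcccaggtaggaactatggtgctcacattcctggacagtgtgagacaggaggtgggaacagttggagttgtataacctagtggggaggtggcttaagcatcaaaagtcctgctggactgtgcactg
Cyp2b13, chr7:26061295-26061494, plus strand: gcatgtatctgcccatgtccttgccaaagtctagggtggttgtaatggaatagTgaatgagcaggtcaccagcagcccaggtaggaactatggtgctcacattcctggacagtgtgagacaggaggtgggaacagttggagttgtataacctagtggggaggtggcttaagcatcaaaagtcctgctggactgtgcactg

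A further set of genes was lowest in normal diet 3. Cyp4a14, a fatty acid hydroxylase and PPARα target, was at 11.27, 11.06 and 5.49 in the normal diet arrays and at 11.23, 10.65 and 11.38 in the high-fat arrays. Normal diet 1 and 2 lay within the high-fat range, and the difference of 1.81 ± 1.40 (limma adjusted p = 0.430) became -0.077 without normal diet 3. Cyp2c38, an epoxygenase, was at 8.69, 9.64 and 5.94 in the normal diet arrays and at 9.69, 9.78 and 9.77 in the high-fat arrays. All normal diet arrays were below all high-fat arrays, normal diet 3 by the most and normal diet 2 only just. Its difference of 1.66 became 0.58 without normal diet 3. A probe set shared by Cyp2a5, the coumarin hydroxylase, and Cyp2a4 was at 12.53, 12.23 and 8.67 in the normal diet arrays and at 12.36, 12.38 and 11.80 in the high-fat arrays. A probe set shared by Cyp4a31 and Cyp4a10, a further PPARα target, was at 11.87, 12.28 and 9.44 in the normal diet arrays and at 11.28, 11.18 and 11.30 in the high-fat arrays. These shared probe sets name no single gene and are outside the 55.

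**Figure D4:**
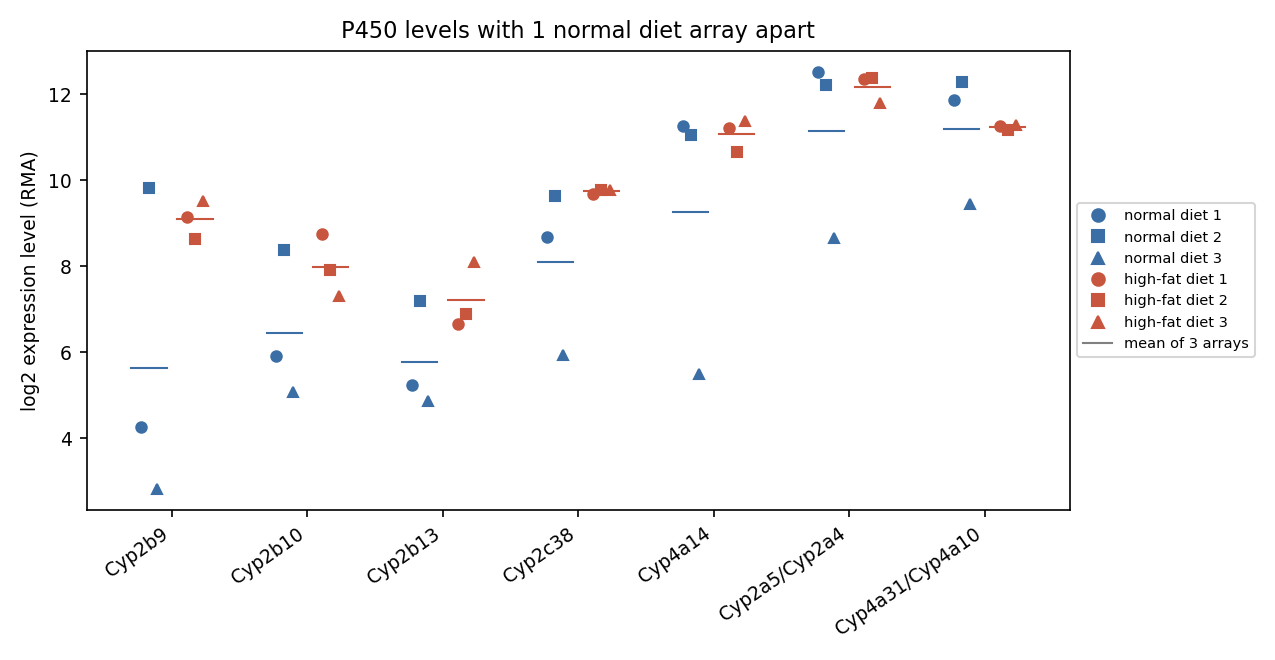
Log2 expression level (RMA, vertical axis) of 5 P450 genes and 2 shared probe sets (horizontal axis), with normal diet arrays in blue and high-fat arrays in red, symbols for array 1, 2 and 3 and a line at each mean. Normal diet 2 (blue square) lies with the high-fat arrays for the Cyp2b genes, and normal diet 3 (blue triangle) is the lowest of all arrays for each item shown.

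The median SD of the 48 genes was 0.272 under the normal diet and 0.121 under the high-fat diet, against 0.166 and 0.117 for all genes. Normal diet 3 was the array farthest from the middle of its group in 24 of 48 genes (50%), against 44.5% of all genes. Across all probe sets, pairs of normal diet arrays correlated with Pearson's r of 0.984 to 0.992, pairs of high-fat arrays with 0.994 to 0.995 and mixed pairs with 0.974 to 0.988. The Gapdh control probes at the 3′ end minus those at the 5′ end, which tell of broken RNA, gave 0.361 (log2) for normal diet 1 and values from -0.186 to 0.0086 for the remaining arrays. Dbp and Tef, clock-output transcription factors that act on P450 genes, were low in normal diet 3. Dbp was at 9.33, 8.59 and 4.29 and Tef at 9.32, 9.07 and 6.87 in the normal diet arrays. The high-fat arrays were at 9.54 to 9.90 for Dbp and 9.09 to 9.38 for Tef. Dbp and Tef were picked out after their values were seen, and their part in the P450 values was not tested. Hlf, listed with them among transcription factors that act on P450 genes, was at 7.16, 6.36 and 6.33 in the normal diet arrays. Its high-fat arrays were at 7.03 to 7.16, and normal diet 3 was nearly level with normal diet 2.

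The calls also rested on all 3 high-fat arrays. Leaving out high-fat 1, 2 or 3 kept Cyp2c54 (limma adjusted p = 0.0331 to 0.0358) and Cyp2c70 (0.0426 to 0.0483) and none of the other 8, whose adjusted p ranged from 0.0557 to 0.134. Over all genes such fits called 213 higher and 59 lower, 162 and 55, and 123 and 46. All 10 differences kept their sign in each of these fits. Without normal diet 2 Cyp2c23 was not called (limma adjusted p = 0.0564).

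**Figure D5:**
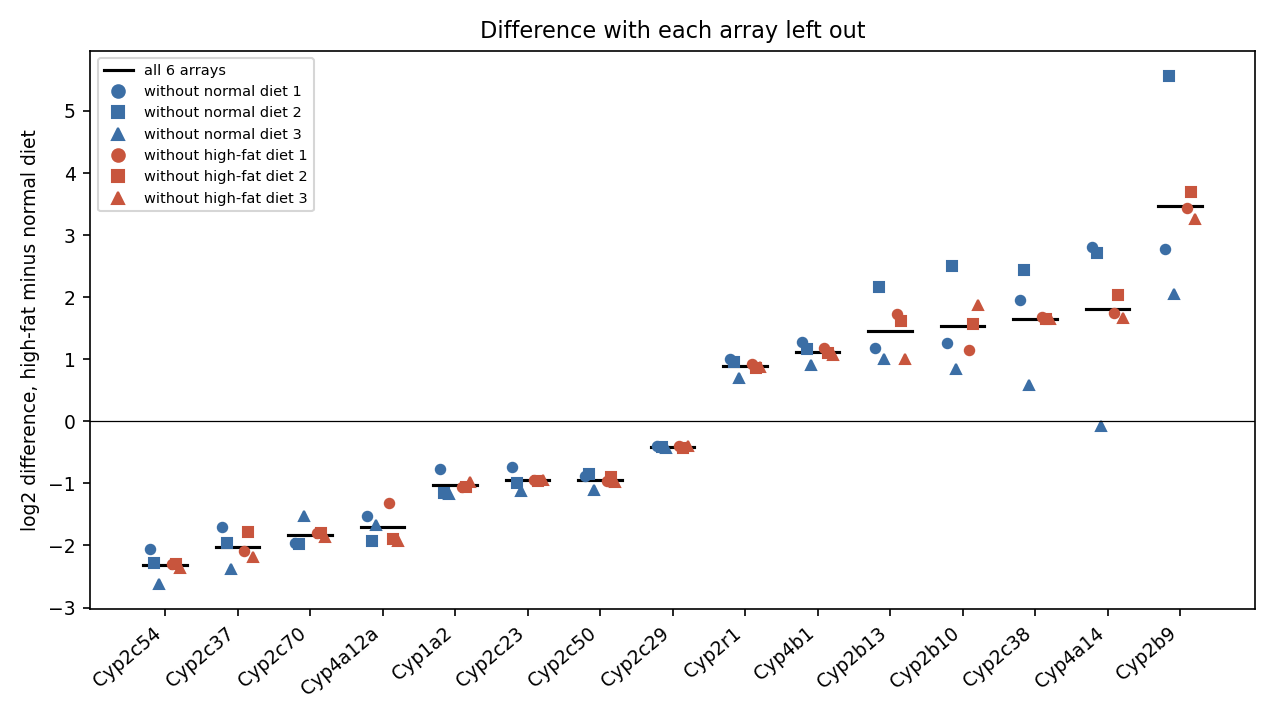
Log2 difference (high-fat minus normal diet, vertical axis) of 15 P450 genes (horizontal axis) with all 6 arrays (black line) and with each array left out in turn (blue symbols for normal diet arrays, red for high-fat arrays). The 10 called genes stay on 1 side of 0 throughout, while Cyp2b9 ranges from 2.06 to 5.56 and Cyp4a14 turns sign without normal diet 3.

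Grouped by what regulates them or where they are expressed, the P450 genes gave uneven counts. Of 7 tested pericentral P450 genes 5 fell (Cyp1a2, Cyp2c29, Cyp2c37, Cyp2c50 and Cyp2c54) and Cyp2e1 and Cyp3a11 were not called, with a median of -0.95. Of 10 tested pericentral hepatocyte genes that are no P450, none was called, with a median of 0.10, and none of 9 periportal ones was, with a median of 0.26. The median SD under the normal diet was 0.615 for those 10 and 0.346 for those 9, against 0.277 for the pericentral P450 genes. A wider spread makes a call harder to reach. Over all genes, 5.87% were called higher and 1.73% lower. Of 11 tested CAR and PXR targets 4 fell and none rose, with a median of 0.05 and 6 of 11 differences above 0. Of 11 tested arachidonic acid epoxygenases 4 fell and none rose, with a median of 0.23 and 7 of 11 differences above 0. Cyp2c23, which fell, is outside this count because the list holds it under its older symbol, which was not matched. Cyp2c29, Cyp2c37, Cyp2c50 and Cyp2c54 are the 4 lower genes of both lists and also 4 of the 5 pericentral ones, so these counts rest on largely the same genes. The 3 tested female-biased genes, of 9 listed, all had positive differences and were not called, and of 3 tested male-biased genes Cyp4a12a fell. Among 15 tested P450 genes of other families, 1 was called higher and 1 lower.

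Genes that supply the enzymes were described from lists of electron donors and of haem synthesis and breakdown. Of 6 tested genes in the list of electron donors, which also holds haem-binding partners, 1 rose and none fell. The cytochrome b5 and b5 reductase genes of the list (Cyb5a, Cyb5b, Cyb5r1 and Cyb5r3) were not called. Pgrmc2, a haem-binding partner of P450 enzymes, was at 7.70, 8.02 and 7.15 in the normal diet arrays and at 8.54, 8.60 and 8.79 in the high-fat arrays (1.02 ± 0.212, limma adjusted p = 0.0328). Its call was lost without normal diet 1 (0.0546). Of 8 tested haem synthesis genes 1 rose. Urod, which acts midway in the pathway, was higher by 0.81 ± 0.139 (limma adjusted p = 0.0183), but by 0.47 with the mean of its probe sets and by 0.14 with the one without a suffix, neither of them called (0.0531 and 0.483). Alas1, the rate-limiting step in liver, differed by -0.07 ± 0.266. None of 4 haem breakdown genes was called, with Hmox1 at -0.73 ± 0.270 (limma adjusted p = 0.135). Of 2 tested epoxide hydrolases Ephx1, which opens epoxides made by P450 enzymes, rose 2.02-fold (1.02 ± 0.233, limma adjusted p = 0.0421), a call lost without normal diet 1 (0.0616). Por, the reductase itself, had no probe set of its own in the annotation used.

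Of 23 tested receptors and transcription factors known to act on P450 genes, 5 fell and 1 rose, beside 1.73% and 5.87% of all genes. Onecut1 (HNF6) was at 7.61, 7.92 and 7.68 in the normal diet arrays and at 5.75, 5.31 and 5.84 in the high-fat arrays. Its groups were far apart, and it fell 4.30-fold (-2.10 ± 0.162, limma adjusted p = 0.00250). Hnf4a, the nuclear receptor that sustains many hepatocyte genes, was at 11.88, 11.88 and 11.89 in the normal diet arrays and at 11.01, 11.31 and 11.25 in the high-fat arrays (-0.69 ± 0.110, limma adjusted p = 0.0138). With the mean of its probe sets the Hnf4a difference was -0.48 (0.0635) and with the probe set without a suffix -0.41 (0.215), neither called. Nfil3, a repressor in the clock output, fell 2.56-fold (-1.36 ± 0.200, limma adjusted p = 0.0118). Ahr, the receptor upstream of Cyp1a2, fell 1.64-fold (-0.71 ± 0.162, limma adjusted p = 0.0408), and was not called with median centring (0.0515) or without normal diet 2 (0.0797). With the mean of its probe sets the Ahr difference was -0.46. The fifth was Foxa2 (-0.94 ± 0.191), named because it completes the count. Nr0b2, the corepressor SHP, rose 2.21-fold (1.14 ± 0.171, limma adjusted p = 0.0119). The receptors CAR (Nr1i3, 0.11 ± 0.360), PXR (Nr1i2, 0.91 ± 0.438) and PPARα (Ppara, 0.15 ± 0.206) were not called. The sign of Nr1i3 turned with quantile normalization and cyclic loess. Nr1i2 was at 5.49 in normal diet 3, against 7.48 and 6.82 in normal diet 1 and 2 and 7.48 to 7.56 in the high-fat arrays, and its difference was 0.36 without normal diet 3.

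Of 12 tested genes of growth hormone signalling, the pathway that sets the sex-biased P450 genes, 4 fell and none rose. Over all genes 1.73% were called lower and 5.87% higher. Socs2, a feedback inhibitor induced by the hormone, was at 8.60, 8.66 and 8.89 in the normal diet arrays and at 4.99, 4.22 and 5.17 in the high-fat arrays (-3.92 ± 0.238, limma adjusted p = 0.00127). With the mean of its probe sets the Socs2 difference was -1.52 (limma adjusted p = 0.00335). Cish fell by 1.84 and Socs3 by 2.58 on the log2 scale. Igf1, the hormone's main liver product, fell by 0.66 (limma adjusted p = 0.0363), and was not called without normal diet 2 (0.0804) or with the probe set without a suffix (0.133). Stat5b, which carries the signal to the nucleus, differed by 0.43 ± 0.209 and was not called.

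Markers of cell types were read on the same arrays. All 8 hepatocyte markers with a probe set were above the filter in every array, and their summed linear level was 94594 to 97826 under the normal diet and 87293 to 90777 under the high-fat diet, with 1 of 8 called lower. That gene was Fgb, a fibrinogen chain (-0.78, limma adjusted p = 0.0131), named after its values were seen. Fgb was bright, at 13.69 to 14.04 under the normal diet and 13.02 to 13.19 under the high-fat diet. Its decrease was the largest part of the drop in the sum, so the sum does not show a drop shared by all the markers. Tat, Cps1 and Ahsg differed by -0.26, -0.28 and -0.24 and were also lower in every high-fat array, none of them called. Alb and Ttr differed by 0.07 and 0.13 and were higher in every high-fat array, neither of them called. Apoa1 and Apob overlapped between the diets. Of 10 Kupffer cell and macrophage markers 6 rose, and the sum of the 10 was 2829 to 3329 and 4725 to 5052. Clec4f, Timd4, Marco and C1qa, which were not called, differed by 0.07, -0.15, -0.06 and 0.54. Of 10 stellate cell markers 3 rose (1752 to 1910 and 2496 to 3198), and of 10 endothelial markers 1 rose (1535 to 1586 and 1727 to 1951). Among the stellate markers not called, Des and Hand2 differed by -0.06 and -0.09, and the others by 0.07 (Rgs5) to 0.67 (Pdgfrb). Of 4 tested pancreatic acinar markers 1 fell, of 4 intestinal ones 1 rose, and none was called of 7 lymphocyte, 5 neutrophil and 3 erythroid markers. The cholangiocyte sum was 105 to 122 and 95.4 to 105, with Cftr below the filter in all arrays. Adipoq and Lep of the adipocyte list and Slc12a1 and Umod of the kidney list were also below the filter in all arrays. The 2 tested adipocyte markers, Fabp4 and Retn, differed by 1.06 and -0.40, neither of them called. The adipocyte sum was 110 to 377 under the normal diet and 358 to 423 under the high-fat diet. The rise of 6 macrophage and 3 stellate markers went with the decrease of the 8 P450 genes, and its part in them was not tested. In whole liver RNA, fewer cells of a type and less RNA per cell cannot be told apart.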

How the data were processed

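Log2 expression levels of 6 arrays were used as the authors deposited them, which the submitters' processing notes say came from RMA and Affymetrix Expression Console 1.0. RNA was extracted with TRIzol, per the labels' protocols. The genome build behind the probe design is not given in the sources used here, so gene order and promoters come from RefSeq tables of GRCm38.p6. After 64 control probe sets were left out, 34945 probe sets had 1 gene symbol, 932 several and 9160 none. Testing a gene required a level over the 40th percentile of the array in 3 or more of the 6. limma 3.58.1 in R 4.3.3 fitted the diets with lmFit and eBayes, checked on simulated data, and Python 3.11.15 with pandas 2.3.3 and matplotlib 3.10.9 made tables and plots. With so few arrays, their number limits the precision.

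The members, lists and tests were chosen with earlier results of these data known. Named were called members, the 10 largest differences each way, 24 landmark genes of which 21 were tested, and in each pathway list up to 4 called genes and some landmarks. Of 259 list entries 217 matched a gene. Landmarks Cyp2a4, Cyp2a5 and Cyp4a10 had shared probe sets only. Alternatives were other level filters, variance models, scalings, probe set choices and thresholds, a block for the replicate number, and fits without 1 array.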

Additional observations from a re-analysis of the deposited data

How the results depend on the processing

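Of 810 values of 48 named genes under the alternatives, 719 kept direction and side of the threshold, 67 lost the call, 9 gained it and 15 changed sign. All 10 P450 calls were kept under the other level filters, the floor, trend and robust variance, array weights, quantile normalization, cyclic loess, the mean of the probe sets and probe sets tested one by one. At an adjusted p below 0.01, 0 P450 genes were higher and 2 lower, and with at least 2-fold 1 and 5. Pathway genes, 4 higher and 9 lower, became 0 and 3 at 0.01, and 5 were lower with at least 2-fold. With each array left out in turn P450 genes called higher ranged from 0 to 5 and lower from 2 to 10, and pathway genes from 0 to 6 and 3 to 13. Fewer arrays but the same genes enter the fits without 1 array, and other causes were not tested.

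The sign changed, in genes not called, for Nr1i3 (-0.10 with array weights, -0.043 with quantile normalization, -0.019 with cyclic loess, and without normal diet 3 or high-fat 1), for Cyp2f2, Cyp2j5 and Cyp3a11 with cyclic loess (-0.018, -0.061 and -0.066), for Cyp2j5 with the mean of probe sets (-0.069) and without high-fat 2, for Alas1 without normal diet 1 or high-fat 2, for Cyp3a11 without normal diet 2, and for Cyp4a14 and Ppara without normal diet 3. With each array left out in turn, Nr1i3 ranged from -0.34 to 0.41, Alas1 from -0.36 to 0.21, Cyp2j5 from -0.0028 to 0.17, Cyp3a11 from -0.029 to 0.098, Cyp4a14 from -0.077 to 2.81 and Ppara from -0.038 to 0.31. The cause was not tested.

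Quantile normalization called 597 genes higher and 299 lower, against 826 and 244. With the replicate number as a block, 2 P450 genes were higher and 6 lower, Cyp2c29 and Cyp4a12a not being called (limma adjusted p = 0.0853 and 0.0606). The numbers gave no sign of pairing, with deviations of same-numbered arrays correlated at -0.012, 0.036 and 0.0999.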
